A study of Mus musculus with 21 samples.

Results

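The response to stroke was measured in brain endothelial cells, the cells that line brain vessels, of mice with a working copy of Gpr124. The comparison sets 4 libraries of the stroke hemisphere (ST 1 to 4) against 4 libraries of the non-stroke hemisphere (NS 1 to 4), which are 8 of the 21 libraries of the series. All 8 came from adult C57BL/6 mice aged 12 to 20 weeks, labelled female, with the genotype Gpr124 flox/+; ROSA-CreER+. Each mouse had a transient closure of the middle cerebral artery (MCAO) of 1 h followed by 1 d of reperfusion, so both groups carry the floxed allele, the recombinase and the operation. The non-stroke hemisphere is that of an operated mouse and not of a mouse without stroke, and a recombinase at the ROSA locus is not restricted to endothelium. Live cells that were CD45-, CD31+ and PDGFRb- were sorted, and their polyadenylated RNA was amplified from the 3' end of transcripts. Values are RPKM, read counts scaled to gene length and library size. Genes were tested where the mean over the 8 libraries was at least 1 RPKM, which held for 9730 of 24206 gene names.

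Brain endothelium forms the blood-brain barrier. Its cells are joined by tight junctions, keep transcytosis low, and carry nutrient transporters and efflux pumps whose expression depends in part on Wnt/beta-catenin signalling, for which Gpr124 is a co-activator with Reck at the cell surface. Ischaemia and reperfusion are known to expose these cells to oxygen loss, oxidants, cytokines and thrombin, and activated endothelium is known to display selectins and other adhesion molecules for leukocytes, to release proteases and to change its cytoskeleton.

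The sorted cells carried endothelial transcripts in every library. Pecam1, the gene of CD31, lay between 142 and 213 RPKM and Cdh5, which encodes VE-cadherin, between 214 and 471 RPKM over the 8 libraries. Flt1 lay between 47.5 and 79 RPKM and Tie1 between 28.7 and 79.2 RPKM. Kdr was low, at 5.44 to 10.2 RPKM in the non-stroke and 6.1 to 10.3 RPKM in the stroke libraries. Tek had 122 to 157 and 97.3 to 111 RPKM in the same order and fell, at -0.49 (adjusted p = 0.0357 in limma's moderated test). Of the genes behind the negative gates, Ptprc (CD45) reached at most 0.726 RPKM and Pdgfrb at most 0.289 RPKM. Transcripts of other cells were present: the summed level of the 14 oligodendrocyte markers ran from 381 to 2170 RPKM in the non-stroke libraries and 69 to 1260 RPKM in the stroke libraries, and none of the 13 of them tested passed the threshold. The 15 neuron markers summed to 21 to 28.2 and 11.3 to 23.2 RPKM in the same order. The 17 fibroblast and choroid plexus markers summed to 348 to 529 and 25.7 to 652 RPKM. None of the members tested of either list passed. Depth, estimated from the steps between low values, ran from 4730000 to 14600000 reads in the non-stroke libraries and from 6580000 to 19300000 reads in the stroke libraries. On the first principal component, with 37.5% of the variance, the 2 groups did not overlap. The labels number the libraries within each group but do not say whether they came from separate animals, and the p-values then reflect only how far these libraries scatter, which may be technical.

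Of the 9730 genes, 1325 (13.6%) passed an adjusted p of 0.05 in limma's moderated test, 835 of them higher (8.58%) and 490 lower (5.04%) in the stroke hemisphere. The median of the rises was 1.21 on the log2 scale and that of the falls -1.09, while the median over all genes tested was 0.01. More than 1 log2 unit separated the groups in 577 rises and 287 falls. Over all genes tested, 1153 (11.8%) had all 4 stroke libraries above all 4 non-stroke libraries and 858 (8.82%) had them below, and 791 of the rises and 455 of the falls were among these. Without ST 3 the count of falls was 299, and without any other single library it was 338 to 441. The share that rose grew with expression level, from 3.47% of the 4003 genes with a mean of 1 to 5 RPKM to 30.2% of the 640 genes at 100 RPKM or more, and the share that fell grew from 1.97% to 17.3%.

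**Figure D1:**
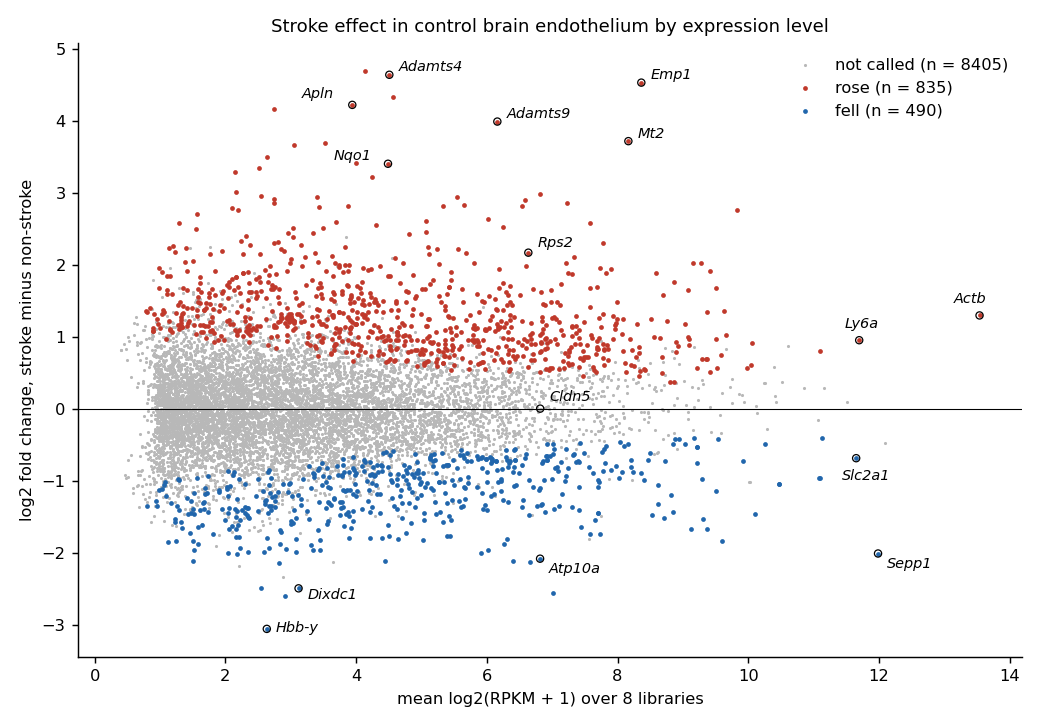
Log2 fold change (stroke minus non-stroke hemisphere) against the mean log2(RPKM + 1) over the 8 control libraries, with 1 point for each of the 9730 genes tested; red points rose, blue points fell and grey points did not pass an adjusted p of 0.05. Adamts4, Emp1 and Apln lie among the largest rises, and Actb and Sepp1 changed at the high end of the level axis.

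The widest rises included genes of matrix remodelling and cell shape. The 15 widest rises and the 15 widest falls were picked among called genes whose groups do not overlap. Their lack of overlap was thus fixed by that choice and is given as a description only. Rnd1 (chr15:98663421-98677461, GRCm38), a small GTP-binding protein that loosens actin fibres, had 1.44, 2, 1.99 and 0.347 RPKM in NS 1 to 4 and 14.2, 23.1, 36.5 and 55.3 RPKM in ST 1 to 4. Its stroke libraries all lay above the others, with ST 4 the highest, and the log2 difference was 3.67 (SE 0.41, adjusted p = 0.00028). Tubb6, a beta-tubulin, went from 0.243, 1.16, 0.077 and 0.394 RPKM to 10.4, 13.4, 12.7 and 15.3 RPKM. The 4 stroke values of Tubb6 lay close together, and its difference was 3.29 (SE 0.30, adjusted p = 6.6e-05). Atp8b1, a phospholipid flippase, rose by 3.22 (SE 0.38, adjusted p = 0.00034), with 1.77 to 9.32 RPKM in the non-stroke and 48.9 to 65.4 RPKM in the stroke libraries.

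Other genes among the 15 widest rises were the matrix proteases Adamts4 (4.64) and Adamts9 (3.99), the membrane protein gene Emp1 (4.53), the apelin gene Apln (4.22), the activin subunit gene Inhbb (3.7), the metallothionein gene Mt2 (3.72) and Slfn4 (3.5). Mir147 rose by 4.34, and it lies within the gene model AA467197, which rose by 4.70, so that reads of the pair cannot be told apart. Scgb3a1, a secretoglobin gene, had 404, 309, 114 and 689 RPKM in ST 1 to 4 against 17.4 to 64 RPKM in the non-stroke libraries. ST 3 was the lowest and ST 4 the highest of its group, and the difference was 2.99 (SE 0.50, adjusted p = 0.00279).

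A further 23 genes were listed at 0 in all 4 non-stroke libraries and above 0 in all 4 stroke libraries, most of them at levels worth few reads. Fosl1, which encodes the AP-1 protein Fra-1, stood at 2.14, 1.55, 2.38 and 1.16 RPKM in ST 1 to 4. Btc, the gene of the growth factor betacellulin, stood at 4.24, 0.897, 1.98 and 6.80 RPKM, and Csf3, the gene of the granulocyte growth factor G-CSF, at 0.114, 1.12, 0.336 and 3.37 RPKM. Sphk1, which encodes a sphingosine kinase, reached 0.406 to 1.00 RPKM and Il23a, a cytokine subunit gene, 0.228 to 1.10 RPKM. These 5 were picked after their values were seen, and the reverse pattern held for 9 genes.

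The widest falls included genes of selenium transport, stress and Wnt signalling. Sepp1 (chr15:3268547-3280508), which encodes the selenium-carrying plasma protein selenoprotein P, had 6878, 8007, 9355 and 8483 RPKM in NS 1 to 4 and 1863, 2614, 1494 and 2290 RPKM in ST 1 to 4. All 4 stroke libraries lay below the non-stroke range, and the difference was -2.01 (SE 0.17, adjusted p = 5e-05). Trp53inp1 (chr4:11156431-11174379), a stress protein linked to autophagy, had 141, 157, 225 and 191 RPKM and 38.3, 50.4, 41.1 and 31.5 RPKM in the same order. The groups were apart at -2.12 (SE 0.19, adjusted p = 7.2e-05). Coro2a, which encodes a coronin that binds actin, fell, at -2.11 (SE 0.30, adjusted p = 0.00106), with 36.4 to 65.4 RPKM in the non-stroke and 5.7 to 15.7 RPKM in the stroke libraries. Dixdc1 (-2.49), a Wnt pathway gene, Net1 (-2.13), a guanine nucleotide exchange factor gene, Atp10a (-2.08), a flippase gene, and Eno3 (-2.0), an enolase gene, were also among the 15 widest falls.

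Some of the widest falls were in transcripts known from other cells. Hbb-y, an embryonic globin gene, fell, at -3.06 (SE 0.29, adjusted p = 9.9e-05), and 4 further beta-globin names fell, at -1.04 to -0.95. These globin copies are nearly identical, Hbb-b2 and Hbb-bt carry the same value in every library, and the adjusted p was 0.063 without ST 1 for Hbb-b2 and 0.124 without ST 1 for Hbb-b1. Of the 11 red-cell and platelet genes tested 5 fell on all 8 libraries, 1 without NS 2, NS 4, ST 1 or ST 3, and 8 without ST 4. The count was 1 without a variance trend or in the fit that included the knockout libraries, and 8 under either median-of-ratios scaling or the replicate block. The summed level of the red-cell and platelet markers was 9230 to 16100 RPKM in the non-stroke libraries and 4180 to 11600 RPKM in the stroke libraries. Ptgds, the prostaglandin D synthase gene, fell, at -2.55 (SE 0.62, adjusted p = 0.0195) with an adjusted p of 0.0609 without ST 3. The neuropeptide-processing gene Scg5 fell, at -2.11 (SE 0.38, adjusted p = 0.00423), from 11.4, 4.1, 2.95 and 3.96 RPKM to 0.546, 0.336, 0 and 0.709 RPKM, with NS 1 the highest library. NS 1 also held the most of the oligodendrocyte transcript Cldn11 (1035 RPKM). The summed level of 16 pericyte and smooth muscle markers was 52.8 to 71.4 RPKM in the non-stroke libraries and 12.6 to 49.3 RPKM in the stroke libraries, and 1 of the 4 tested, Rgs5, fell, with an adjusted p of 0.115 without ST 1. Without Rgs5 the other pericyte markers summed to 10.7 to 14.7 RPKM in the non-stroke and 4.96 to 9.36 RPKM in the stroke libraries. That of 19 microglia and macrophage markers was 17.4 to 120.0 RPKM in the non-stroke libraries and 9.83 to 32.8 RPKM in the stroke libraries. The 14 astrocyte markers summed to 4370 to 6260 RPKM in the non-stroke libraries and 3020 to 5040 RPKM in the stroke libraries, nearly all of it Glul, the glutamine synthetase gene, and without Glul to 17.6 to 24.4 and 11.0 to 27.4 RPKM in the same order. Of the 4 astrocyte markers tested 1 fell, Clu, at -1.04 (SE 0.29, adjusted p = 0.0375), with the call lost without each of 7 libraries in turn (adjusted p = 0.0991 without NS 1), and Glul did not pass. Gfap, which defines astrocytes, stayed at or below 0.14 RPKM in all 8. The part of these cells in the falls was not tested. In sorted bulk RNA, fewer cells of a kind and less RNA per cell cannot be told apart.

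Protein synthesis and turnover genes moved upward together. Of 78 cytosolic ribosomal protein genes, all tested, 57 rose and none fell, with a median of 0.84 against 0.01 over all genes. Of 31 subunit genes of the constitutive proteasome, which degrades tagged proteins, 19 rose and none fell, with a median of 0.84. Since high expression itself went with more calls, the counts are set beside genes of the same level. Among ribosomal protein genes at 100 RPKM or more, 46 of 63 rose, where 30.2% of all genes at that level did. Among proteasome genes at 20 to 100 RPKM, 16 of 22 rose, where 13.9% of all genes at that level did. With 1 library left out, 41 to 53 ribosomal protein genes and 12 to 16 proteasome genes rose, the 12 without ST 2. Without a variance trend in the fit 37 ribosomal protein genes rose. Many ribosomal protein genes have processed copies in the genome, and how the authors' counting shared reads between them is not given in the sources used here.

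Rps2, of the small ribosomal subunit, had 39.6, 46.6, 52.1 and 45.8 RPKM in NS 1 to 4 and 206, 194, 181 and 269 RPKM in ST 1 to 4. Every stroke value was more than 3 times every non-stroke value, and the difference was 2.17 (SE 0.16, adjusted p = 3.8e-05). Rpl10, of the large subunit, had 219, 236, 250.4 and 248 RPKM and 714, 643, 616 and 940.4 RPKM, without overlap, and rose by 1.59 (SE 0.15, adjusted p = 7.5e-05). Psmd14, the deubiquitinase of the proteasome lid, had 12.8, 12.2, 17.8 and 12.1 RPKM and 41.9, 38.4, 39.1 and 39 RPKM, and rose by 1.48 (SE 0.19, adjusted p = 0.00047). Its 4 stroke libraries differed by less than 4 RPKM. Psmb7, a catalytic subunit gene, rose by 1.14 (SE 0.15, adjusted p = 0.00055) and Psmc3, an ATPase subunit gene of the regulatory particle, by 1.36 (SE 0.21, adjusted p = 0.00162).

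Some genes that build ribosomes and charge tRNAs rose as well. Of 27 ribosome biogenesis and Myc-linked growth genes tested, 9 rose and none fell (median 0.97), where 8.58% of all genes tested rose. Fbl, the nucleolar methyltransferase fibrillarin, had 5.14, 7.28, 9.68 and 7.18 RPKM in NS 1 to 4 and 54.8, 37.4, 34.8 and 67.1 RPKM in ST 1 to 4, a difference of 2.55 (SE 0.26, adjusted p = 0.00016) with ST 4 the highest. Odc1, which starts polyamine synthesis, rose by 2.27 (SE 0.27, adjusted p = 0.00036), the helicase gene Ddx21 by 1.49 (SE 0.16, adjusted p = 0.00023) and the nucleophosmin gene Npm1 by 1.1 (SE 0.14, adjusted p = 0.0004). Of 19 tRNA synthetase genes 7 rose and none fell (median 0.97), but this count dropped to 1 without ST 1, and to 3 without NS 2, NS 3 or ST 2. Rars, the arginine enzyme gene, was the one that passed throughout, with 1.26 (SE 0.26, adjusted p = 0.00826). Of 75 respiratory chain genes 12 rose and none fell, with a median of 0.39, and 7 rose without a variance trend. By level, 3 of 28 rose at 1 to 20 RPKM, 7 of 38 at 20 to 100 RPKM and 2 of 9 at 100 RPKM or more, where 5.27%, 13.9% and 30.2% of all genes did, so the count lay near that of genes of the same level. Cycs, the cytochrome c gene, rose by 1.39 (SE 0.18, adjusted p = 0.0005) and Atp5g1, of the ATP synthase, by 1.67 (SE 0.36, adjusted p = 0.0103).

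**Figure D2:**
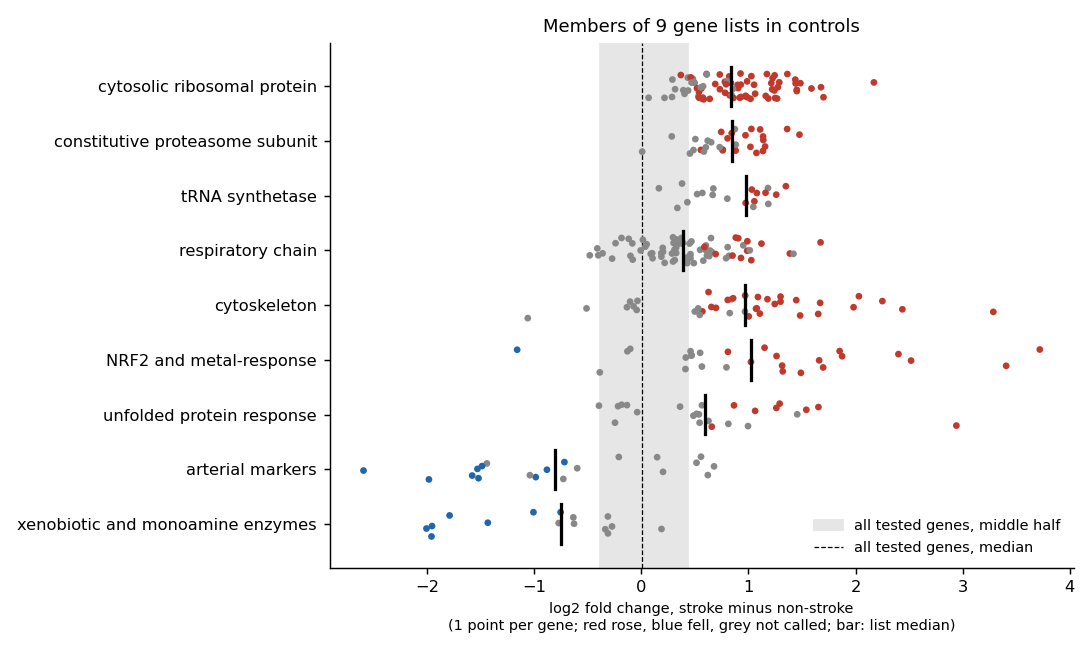
Log2 fold changes (stroke minus non-stroke) of the members of 9 gene lists, with 1 point per gene, red for rises, blue for falls, grey for genes that did not pass, and a black bar at the list median; the grey band spans the quartiles of all 9730 genes. The ribosomal protein genes centre at 0.84 and the respiratory chain genes at 0.39, while the arterial markers and the xenobiotic enzymes centre below 0.

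Stress programmes were uneven. Of 27 NRF2 target and metal-response genes tested, 15 rose and 1 fell (median 1.02), where 8.58% and 5.04% of all genes tested did. NRF2 is the transcription factor that induces detoxifying and thiol-restoring enzymes after oxidant stress. Nqo1, a quinone reductase gene, had 8.99, 10.1, 2.07 and 5.61 RPKM in NS 1 to 4 and 63.2, 73.9, 121 and 47.6 RPKM in ST 1 to 4. The groups did not overlap, and the difference was 3.41 (SE 0.40, adjusted p = 0.00034), with ST 3 the highest. Thioredoxin itself (Txn1) rose by 1.87 (SE 0.20, adjusted p = 0.00019), its reductase (Txnrd1) by 1.85 (SE 0.22, adjusted p = 0.00034) and sulfiredoxin (Srxn1), which restores oxidised peroxiredoxins, by 2.4 (SE 0.27, adjusted p = 0.00026). The cystine carrier gene Slc7a11, which feeds glutathione synthesis, rose, with 0.184 to 0.627 RPKM in the non-stroke and 1.7 to 3.25 RPKM in the stroke libraries. The one fall, Gstm1 of a glutathione transferase and named after its values were seen, stood at -1.16 (SE 0.34, adjusted p = 0.0426), with an adjusted p of 0.111 without NS 2 and the call lost without each of 7 libraries in turn.

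The unfolded protein response list, which covers genes induced when proteins misfold in the endoplasmic reticulum, had 8 rises and no fall among 24 tested (median 0.60). Atf4, the transcription factor of the integrated stress response, had 60.2, 92.2, 79.4 and 54.2 RPKM in NS 1 to 4 and 206, 219.7, 239.9 and 225 RPKM in ST 1 to 4, a difference of 1.65 (SE 0.18, adjusted p = 0.0002). Asns, asparagine synthetase and a target of ATF4, had 6.35, 2.68, 1.88 and 1.74 RPKM and 29.6, 22.1, 23.4 and 41.9 RPKM and rose by 2.94 (SE 0.34, adjusted p = 0.00034). In both genes every stroke library lay above every non-stroke library. The chaperone gene Hspa5 rose by 1.29 (SE 0.21, adjusted p = 0.00228) and Xbp1 by 1.54 (SE 0.31, adjusted p = 0.00766). Of 18 heat shock genes 5 rose and none fell. The share of rises over all genes tested was 8.58%, and these 2 lists were not set beside genes of the same level. Hspe1, the mitochondrial co-chaperonin gene, rose from 51.5, 47.5, 34.6 and 43.4 RPKM to 114, 137, 141 and 159 RPKM, by 1.62 (SE 0.17, adjusted p = 0.00019).

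Hypoxia-inducible genes did not move 1 way. Of 18 hypoxia-inducible genes tested, 3 rose and 4 fell, where 8.58% and 5.04% of all genes tested did, and the median was -0.41. Hif1a, the oxygen-regulated subunit of the hypoxia factor, had 168, 168, 169 and 171 RPKM in NS 1 to 4 and 268, 403, 454 and 363 RPKM in ST 1 to 4, a rise of 1.11 (SE 0.16, adjusted p = 0.0012). Mxi1, a Myc antagonist gene induced by hypoxia, had 67.5, 66.3, 61.2 and 33.3 RPKM and 22.8, 24.4, 11.8 and 17 RPKM and fell, at -1.54 (SE 0.28, adjusted p = 0.00447). Neither gene's groups overlapped. The other 5 calls of the list, Kdm3a and Epas1 among its falls, were each lost without single libraries. The adjusted p was 0.115 without ST 2 for the growth factor gene Vegfa, 0.0861 without ST 3 for Bhlhe40, 0.0747 without ST 3 for Bnip3l, 0.0928 without ST 3 for Kdm3a and 0.131 without NS 2 for Epas1, which was named after its values were seen. Of 15 glycolysis genes only Gapdh and Pgk1 passed, by 1.95 (SE 0.27, adjusted p = 0.00078) and 1.74 (SE 0.26, adjusted p = 0.00159). The count of glycolysis rises was 5 with median-of-ratios scaling, 4 with quantile normalization, 5 with the replicate block, 6 in the fit with the knockout libraries included, and 4 without NS 1 or ST 3.

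The cytoskeleton list had 25 rises and no fall among 38 genes tested, with a median of 0.97, and 20 to 24 rises when 1 library was left out. By level, 5 of 12 rose at 1 to 20 RPKM, 8 of 11 at 20 to 100 RPKM and 12 of 15 at 100 RPKM or more. Of all genes at these levels 5.27%, 13.9% and 30.2% did. Actb, beta-actin, had 8658, 7225, 7375 and 7163 RPKM in NS 1 to 4 and 20280, 16090, 18200 and 20410 RPKM in ST 1 to 4. Every stroke value lay above every non-stroke value, NS 1 was apart at the top of its group, and the difference was 1.3 (SE 0.11, adjusted p = 5.1e-05). Actn1, an actin cross-linker gene, had 10.0, 15.8, 16.5 and 17.9 RPKM and 49.3, 77.8, 94.5 and 81.9 RPKM and rose by 2.25 (SE 0.24, adjusted p = 0.00023). The tubulin gene Tuba1c rose by 2.44 (SE 0.27, adjusted p = 0.00026), the membrane-binding Anxa2 by 1.98 (SE 0.16, adjusted p = 5e-05) and S100a11, which binds annexins, by 2.03 (SE 0.21, adjusted p = 0.00015). Srf, the factor that drives many actin genes, was named for its promoter and rose by 1.07 (SE 0.29, adjusted p = 0.0307), with 0.776 to 1.55 RPKM in the non-stroke and 2.75 to 5.05 RPKM in the stroke libraries, with an adjusted p of 0.074 without NS 4 and the call lost without each of 6 libraries in turn. The integrin subunit gene Itgb1 rose by 0.98 (SE 0.14, adjusted p = 0.00091).

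Inflammatory genes rose in part. Of 9 leukocyte adhesion genes 4 rose (Icam1, Sele, Ackr1 and Selp), of 11 cytokine and chemokine genes 4 rose and 1 fell, and of 24 NF-kB pathway genes 8 rose and none fell. The 8 became 5 without ST 3. The shares over all genes tested were 8.58% for rises and 5.04% for falls, and these lists were not set beside genes of the same level. Cxcl2, the gene of a neutrophil-attracting chemokine, had 1.15, 0.798, 0.619 and 0.128 RPKM in NS 1 to 4 and 9.67, 11.9, 12.5 and 7.79 RPKM in ST 1 to 4. All stroke values of Cxcl2 lay above all others, and the difference was 2.79 (SE 0.30, adjusted p = 0.0002). Il6 was listed at 0 in NS 1 to 3 and at 0.063 RPKM in NS 4, against 3.94, 4.03, 1.54 and 7.42 RPKM in ST 1 to 4. ST 3 was the lowest and ST 4 the highest, and the adjusted p was 0.00217. Sele, which encodes the rolling receptor E-selectin, had 4.99, 9.72, 9.92 and 35.8 RPKM against at most 0.798 RPKM, so that ST 4 stood apart within its group.

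The 8 NF-kB rises were the subunit genes Rela and Nfkb2, the inhibitor and feedback genes Nfkbib, Nfkbiz, Bcl3 and Tnfaip3, and the receptor genes Tnfrsf1a and Tlr4. The call of Tnfrsf1a was lost without NS 3, NS 4, ST 2 or ST 3, with an adjusted p of 0.0549 without ST 3. Nfkbiz, an atypical inhibitor gene, rose by 1.31 (SE 0.23, adjusted p = 0.00354) and Tnfaip3, which encodes the ubiquitin-editing brake A20, by 1.98 (SE 0.41, adjusted p = 0.00817). Rela itself rose, with 3.59 to 7.97 RPKM in the non-stroke and 11.7 to 18.6 RPKM in the stroke libraries, by 1.16 (SE 0.27, adjusted p = 0.0143). Of the 26 genes of cytokine receptors and JAK-STAT signalling, 5 rose and 1 fell, where 8.58% and 5.04% of all genes tested did, so the falls lay near the background. Socs3, a feedback inhibitor, rose by 2.25 (SE 0.30, adjusted p = 0.00063), and Lifr, a receptor of the same cytokine family, fell, at -1.36 (SE 0.23, adjusted p = 0.00269). The other 4 rises depended on single libraries, with an adjusted p of 0.0554 without NS 2 for Jak2, 0.0626 without ST 3 for Il6st, 0.0782 without NS 2 for Il4ra and 0.0866 without NS 2 for Osmr.

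Few interferon-linked genes passed. Of 29 interferon response genes tested 3 rose and 1 fell, a share near the background of 8.58% and 5.04%, with a median of 0.02. The 3 rises were neighbouring members of 1 family of membrane proteins that block virus entry. Ifitm3 had 242, 216, 159 and 188 RPKM in NS 1 to 4 and 803, 637, 611 and 944 RPKM in ST 1 to 4, a difference of 1.89 (SE 0.18, adjusted p = 8.2e-05). Ifitm1 rose by 1.59 (SE 0.23, adjusted p = 0.00103) and Ifitm2 by 1.16 (SE 0.18, adjusted p = 0.00162), and all 3 genes had groups that did not overlap. The sequences of the family are alike, so reads may be shared between its members. The guanylate-binding gene Gbp7 fell, at -0.94 (SE 0.18, adjusted p = 0.00608). Of 17 antigen presentation genes 1 fell, H2-T23, whose adjusted p was 0.12 without NS 3.

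Leukocyte transcripts moved unevenly with these genes. Of 23 blood leukocyte markers in the table, 11 were at 0 in all 8 libraries and 18 stayed below 1 RPKM. The neutrophil gene S100a9 stood at 1.61, 0, 0 and 0 RPKM in NS 1 to 4 and 0.592, 0.196, 19.2 and 32.9 RPKM in ST 1 to 4, and Retnlg at 4.84, 0, 0 and 0 and 12.4, 0, 2.5 and 63.8 RPKM. ST 4 was the highest for both, and neither passed the test. The summed level of all 23 was 448 to 624 RPKM in the non-stroke libraries and 458 to 731 RPKM in the stroke libraries, nearly all of it Ly6c2. Without Ly6c2 the other markers summed to 0.563 to 14.4 RPKM in the non-stroke and 2.84 to 107 RPKM in the stroke libraries. The part of stray leukocytes in the rises of Slfn4 and Lcn2, which myeloid cells also express, was not tested.

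**Figure D3:**
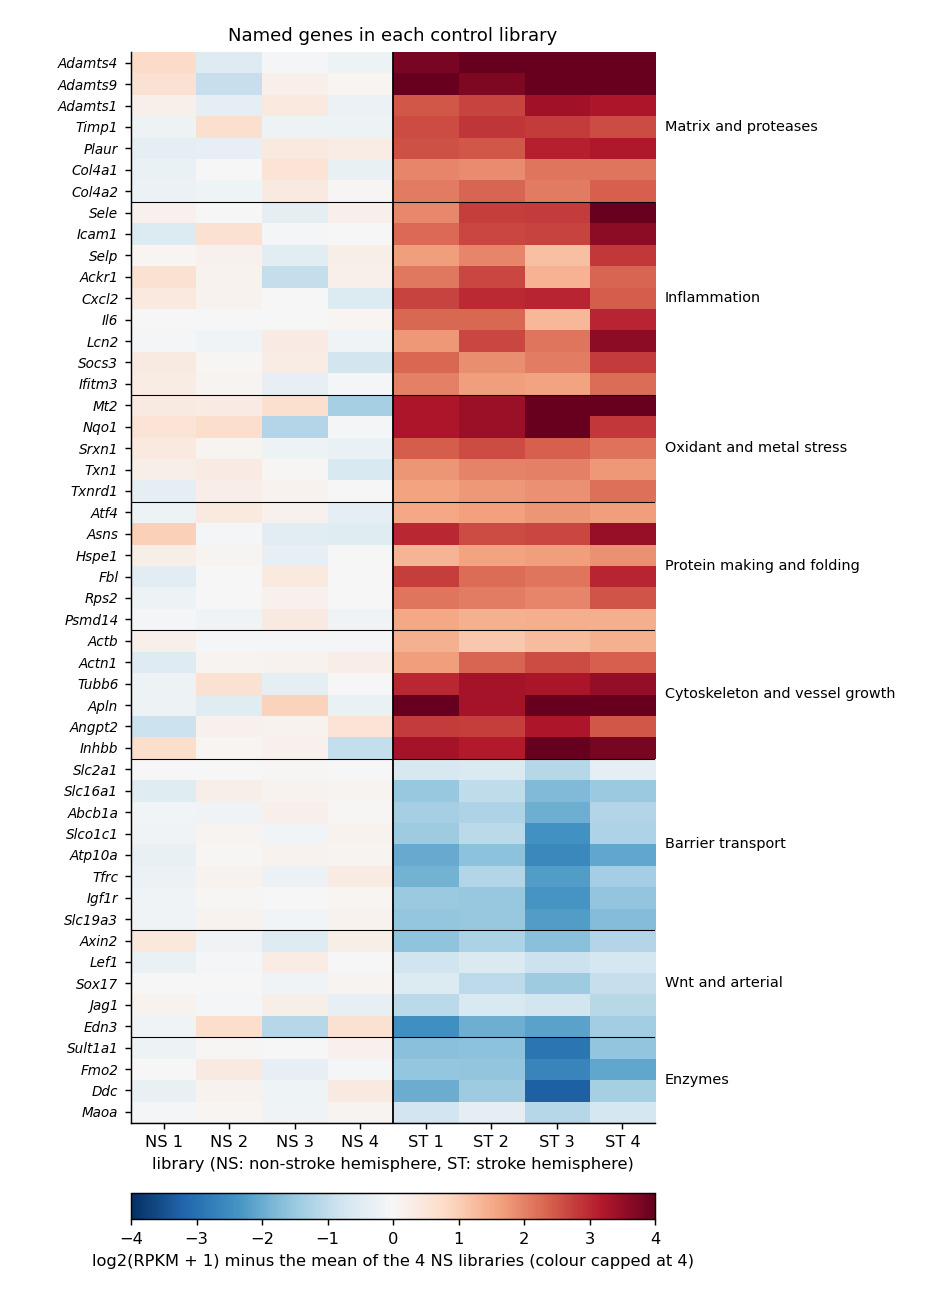
Log2(RPKM + 1) of named genes in each of the 8 libraries minus the mean of the 4 NS libraries, red above and blue below it, with colour capped at 4 log2 units; black lines separate the gene groups and the 2 hemispheres. The rises and falls recur in all 4 stroke libraries, with Sele and Lcn2 highest in ST 4 and Sult1a1 and Ddc lowest in ST 3. Most of these genes were picked for their calls in these same libraries, so the recurrence is no separate support.

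Promoters of genes that rose in these groups are shown for the letters that transcription factors of the same themes are known to bind. They are the 250 bases before the start site in RefSeq (GRCm38.p6), 5′ to 3′ along the gene, with matches on either strand of the pattern each is shown for in capitals, and the 6 genes were chosen after their values were seen. Cxcl2 (chr5:90903649-90903898, plus strand) and Il6 (chr5:30012864-30013113, plus strand) hold the kappa-B pattern of NF-kB. Prdx1 (chr4:116685349-116685598, plus strand) holds the antioxidant response element TGACNNNGC, here overlapping the AP-1 pattern TGANTCA. Prdx1 has 2 AP-1 matches, and the one outside that element is in lower case. Hspe1 (chr1:55087898-55088147, plus strand) holds 2 overlapping heat shock elements, and Actg1 (chr11:120348496-120348745, minus strand) and Srf (chr17:46556163-46556412, minus strand) hold CArG boxes, the site of SRF.
Cxcl2: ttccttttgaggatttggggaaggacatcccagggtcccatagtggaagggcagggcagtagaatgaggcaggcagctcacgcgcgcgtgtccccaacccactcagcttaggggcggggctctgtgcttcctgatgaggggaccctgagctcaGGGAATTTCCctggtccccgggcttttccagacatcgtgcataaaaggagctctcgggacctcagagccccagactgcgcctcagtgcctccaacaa
Il6: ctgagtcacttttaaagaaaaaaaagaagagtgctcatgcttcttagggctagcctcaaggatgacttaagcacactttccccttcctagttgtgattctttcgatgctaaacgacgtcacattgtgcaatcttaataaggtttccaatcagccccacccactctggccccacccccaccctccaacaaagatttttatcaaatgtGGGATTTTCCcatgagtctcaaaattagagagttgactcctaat
Prdx1: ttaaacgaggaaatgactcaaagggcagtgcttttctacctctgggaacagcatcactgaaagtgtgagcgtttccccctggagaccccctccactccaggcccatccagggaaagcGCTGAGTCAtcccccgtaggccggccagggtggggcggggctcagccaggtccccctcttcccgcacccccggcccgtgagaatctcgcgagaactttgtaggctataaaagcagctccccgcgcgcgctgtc
Hspe1: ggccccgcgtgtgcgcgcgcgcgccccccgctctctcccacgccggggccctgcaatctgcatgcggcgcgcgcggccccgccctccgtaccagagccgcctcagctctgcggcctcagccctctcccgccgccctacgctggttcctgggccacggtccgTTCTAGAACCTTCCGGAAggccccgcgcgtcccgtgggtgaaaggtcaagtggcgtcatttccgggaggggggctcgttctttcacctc
Actg1: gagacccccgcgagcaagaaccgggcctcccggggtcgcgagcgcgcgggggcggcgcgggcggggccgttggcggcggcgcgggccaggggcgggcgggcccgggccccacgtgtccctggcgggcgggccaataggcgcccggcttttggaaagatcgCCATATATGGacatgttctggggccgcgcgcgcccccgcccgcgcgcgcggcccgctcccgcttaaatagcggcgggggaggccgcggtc
Srf: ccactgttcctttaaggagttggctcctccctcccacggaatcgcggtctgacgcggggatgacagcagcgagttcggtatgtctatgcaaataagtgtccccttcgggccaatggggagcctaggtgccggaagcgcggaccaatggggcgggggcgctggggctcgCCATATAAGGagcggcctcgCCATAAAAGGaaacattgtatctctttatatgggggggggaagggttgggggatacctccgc
Prdx1, a peroxiredoxin gene, rose by 0.81 (SE 0.17, adjusted p = 0.00994) and the gamma-actin gene Actg1 by 1.65 (SE 0.20, adjusted p = 0.00034). A match describes the letters and shows neither a bound site nor a cause.

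Over RefSeq windows of 300 bases (250 before to 50 after the start), 7314 of the 9730 genes tested had 9369 windows, 736 of them of rises and 540 of falls. The AP-1 pattern was in 8.15% of windows of rises, 5.37% of those of falls and 4.93% of all windows. The antioxidant response element was in 19.2%, 12.0% and 14.4% in the same order, and any overlap with AP-1 was counted under both. The forkhead pattern TGTTTAC was in 2.04% of windows of rises and 5.0% of those of falls, against 2.55% of all. The CArG box was in 2.31%, 1.67% and 1.39%, the E-box CACGTG in 11.4%, 8.33% and 10.0%, and the heat shock element in 0.951%, 0.741% and 0.544%. The NF-kB pattern was rare, in 0.543% of windows of rises (4 windows), none of falls and 0.448% of all. The TCF pattern CTTTGAT of Wnt signalling was in 1.77%, 2.41% and 2.47%. The other 4 of the 12 patterns searched were the cAMP response element TGACGTCA (3.12%, 2.41% and 3.17%), the STAT pattern TTCCNGGAA (1.49%, 1.11% and 1.36%), the hypoxia response element TACGTG (2.99%, 2.22% and 3.90%) and the sterol response element TCACNCCAC (1.90%, 1.30% and 1.11%). These shares are descriptions with no test.

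Clotting genes rose in part, and vessel-tone genes moved both ways. Of 16 coagulation and fibrinolysis genes 7 rose and none fell. The shares over all genes tested were 8.58% for rises and 5.04% for falls. Neither this list nor the vasoactive list was set beside genes of the same level. Plaur, the urokinase receptor gene, had 13.5, 14, 23.5 and 22 RPKM in NS 1 to 4 and 109, 104, 161 and 170.3 RPKM in ST 1 to 4, a difference of 2.84 (SE 0.24, adjusted p = 5e-05). Thbd, which encodes the anticoagulant receptor thrombomodulin, had 152, 117, 150.1 and 121 RPKM and 236, 311, 332 and 236 RPKM and rose by 1.03 (SE 0.16, adjusted p = 0.00197). Neither gene's groups overlapped. Procr, of the protein C receptor, rose by 1.91 (SE 0.43, adjusted p = 0.0135), and Entpd1, which clears extracellular ATP and ADP, by 0.94 (SE 0.17, adjusted p = 0.00451). Of 17 vasoactive genes 5 rose and 2 fell. Nos3, the endothelial nitric oxide synthase gene, had 6.5, 13.2, 13.8 and 8 RPKM and 25.2, 25.7, 28.6 and 50.7 RPKM and rose by 1.56 (SE 0.30, adjusted p = 0.00576), with ST 4 the highest. The vasoconstrictor peptide genes went opposite ways, Edn1 by 1.89 (SE 0.25, adjusted p = 0.00068) and Edn3 at -1.98 (SE 0.42, adjusted p = 0.00909). Ece1, the enzyme that matures endothelin, rose by 1.16 (SE 0.24, adjusted p = 0.00782).

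Matrix and vessel-growth genes were split as well. Their counts stand beside shares of 8.58% for rises and 5.04% for falls over all genes tested, and were not set beside genes of the same level. Of 12 basement membrane genes 4 rose and none fell, among them the collagen IV chain genes Col4a1 (2.03) and Col4a2 (2.22). The chain genes Col4a3 and Col4a5 were below the level tested, at 0.0256 to 2.27 and 0.0316 to 1.23 RPKM in the non-stroke and 0.0177 to 0.196 and 0 to 0.21 RPKM in the stroke libraries. Of 18 other matrix genes 4 rose and 4 fell. Igfbp7 had 396, 415, 366 and 441 RPKM in NS 1 to 4 and 1197, 1278, 1173 and 1556 RPKM in ST 1 to 4, and Sparcl1, a matricellular relative of Sparc, had 1758, 1683, 1266 and 1204 and 488, 546, 258 and 398 RPKM. Igfbp7 rose by 1.68 (SE 0.13, adjusted p = 3.8e-05) and Sparcl1 fell, at -1.84 (SE 0.22, adjusted p = 0.00038), each without overlap. Serpinh1, the collagen chaperone gene, rose by 1.84 (SE 0.28, adjusted p = 0.00162), and the hyaluronan-associated Itih5 fell, at -1.82 (SE 0.24, adjusted p = 0.00065). The protease inhibitor gene Timp1 was listed at 0 in 3 non-stroke libraries and at 6.03 to 7.35 RPKM in the stroke libraries. Among 29 angiogenic ligand and receptor genes 5 rose and 4 fell, with 2 falls without NS 2, NS 4, ST 3 or ST 4. Hbegf, the gene of a heparin-binding growth factor, rose by 2.81 (SE 0.24, adjusted p = 5.1e-05), while Nrp1, a VEGF co-receptor, fell, at -0.72 (SE 0.15, adjusted p = 0.0104). In Notch signalling the ligand genes diverged, with Dll1 at 2.08 (SE 0.32, adjusted p = 0.00162) and Jag1 at -0.88 (SE 0.17, adjusted p = 0.00585).

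Part of the arterial vessel-zone genes fell. Of 20 arterial markers 9 fell and none rose (median -0.81), with 8 to 10 falls when 1 library was left out. The shares over all genes tested were 5.04% for falls and 8.58% for rises. Of the 11 not called, Cxcr4 (0.68), Dll4 (0.62), Jag2 (0.56), Gja4 (0.51), Efnb2 (0.20) and Mgp (0.15) pointed up. Bmx (-0.73), Cytl1 (-1.44), Stmn2 (-0.60), Vegfc (-1.04) and Fbln5 (-0.21) pointed down. Sox17, an arterial transcription factor gene that also sits on the Wnt target list, had 62.6, 61.7, 55.1 and 66.7 RPKM in NS 1 to 4 and 42, 29.2, 22.1 and 31.8 RPKM in ST 1 to 4, a difference of -0.99 (SE 0.20, adjusted p = 0.0077). Tgfb2 fell, at -1.49 (SE 0.30, adjusted p = 0.00755), Alpl at -1.52 (SE 0.29, adjusted p = 0.00573) and Fbln2, a matrix fibulin, at -1.53 (SE 0.28, adjusted p = 0.00472). Of 15 venous markers 5 rose and 1 fell (median 0.55), and Icam1, Lcn2 and Ackr1 among the 5 are also inflammatory genes. The venous transcription factor gene Nr2f2 had 41.1, 41.8, 43.5 and 38.8 RPKM and 79.9, 89, 73.2 and 78.1 RPKM and rose by 0.94 (SE 0.14, adjusted p = 0.00162). Tmem252 rose by 2.46 (SE 0.23, adjusted p = 7.5e-05).

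Falls outnumbered rises in 4 of 6 groups of barrier transport genes. Of 8 efflux pump genes 3 fell, of 7 glucose and lactate carrier genes 5, of 9 anion, hormone and vitamin carrier genes 5 and of 12 zinc, iron and receptor genes 7, and of these 4 groups only the last held rises (2). Of 12 amino acid carrier genes 3 rose and 2 fell (median 0.03), and of 10 lipid carrier and flippase genes 2 rose and 2 fell (median 0.40). Over all genes tested 5.04% fell, and of those at 100 RPKM or more 17.3% did. These 6 groups were not set beside genes of the same level. Slc19a3, the thiamine carrier gene, had 36.7, 44.7, 37.4 and 44.8 RPKM in NS 1 to 4 and 13.3, 13.5, 7.89 and 11.5 RPKM in ST 1 to 4, a difference of -1.76 (SE 0.21, adjusted p = 0.00034). Igf1r, the receptor gene of insulin-like growth factor, had 313, 360.1, 346 and 369.6 RPKM and 123, 122, 66.6 and 114 RPKM and fell, at -1.73 (SE 0.19, adjusted p = 0.00026). Slc16a1, the lactate and ketone carrier MCT1, had 1291, 2153, 2003 and 1970 RPKM and 633, 895, 531 and 643 RPKM and fell, at -1.46 (SE 0.19, adjusted p = 0.00061). For all 3 the groups did not overlap, and ST 3 was the lowest library. Bsg, whose product basigin brings such carriers to the membrane, fell, at -1.53 (SE 0.35, adjusted p = 0.015).

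The thyroid hormone carrier gene Slco1c1 fell, at -1.54 (SE 0.25, adjusted p = 0.00241), its relative Slco1a4 at -1.52 (SE 0.29, adjusted p = 0.00615) and the iron exporter gene Slc40a1 at -1.41 (SE 0.18, adjusted p = 0.00045). The glucose carrier gene Slc2a1 had 3990, 4061, 4189 and 4058 RPKM and 2624, 2716, 1850 and 3135 RPKM and fell, at -0.68 (SE 0.15, adjusted p = 0.0106), a call that quantile normalization removed (adjusted p = 0.30). Amino acid carriers split, with Slc7a1 (-1.45) and Slc7a5 (-1.4) lower and Slc7a11 (1.31) and Slc1a5 (1.4) higher in the stroke hemisphere. Ftl1, which encodes a ferritin chain that stores iron, rose by 1.15 (SE 0.13, adjusted p = 0.00029), while the transferrin receptor gene Tfrc fell, at -1.67 (SE 0.23, adjusted p = 0.00075).

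Enzymes of the metabolic barrier were lower too. Of 15 xenobiotic and monoamine enzyme genes 7 fell and none rose (median -0.75), and 4 fell in a fit with the knockout libraries included. Over all genes tested 5.04% fell, and of those at 100 RPKM or more 17.3% did. This list was not set beside genes of the same level. Sult1a1, a sulfotransferase gene, had 109.8, 129, 125 and 142 RPKM in NS 1 to 4 and 38.5, 39.8, 15.8 and 41.6 RPKM in ST 1 to 4, with ST 3 apart below the other 3. Its difference was -1.96 (SE 0.28, adjusted p = 0.00093). Ddc, which decarboxylates L-DOPA, had 96.4, 133, 105 and 153 RPKM and 29.3, 43.7, 11.6 and 46.8 RPKM, again with ST 3 the lowest, and fell, at -2.01 (SE 0.37, adjusted p = 0.00441). The flavin monooxygenase genes Fmo1 and Fmo2 fell, at -1.43 (SE 0.23, adjusted p = 0.00229) and -1.96 (SE 0.29, adjusted p = 0.0013), and Maoa, monoamine oxidase A, at -0.75 (SE 0.17, adjusted p = 0.0132).

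Of 15 Wnt target genes of brain endothelium 9 fell and none rose, and of 14 genes of Wnt receptors and pathway parts 2 fell. Over all genes tested 5.04% fell, and of those at 100 RPKM or more 17.3% did. Neither list was set beside genes of the same level, and the 2 falls among the receptors and pathway parts are a description only. Axin2, a feedback inhibitor that reports on the pathway, fell, with 2.84 to 6.21 RPKM in the non-stroke and 0.717 to 1.43 RPKM in the stroke libraries, at -1.43 (SE 0.30, adjusted p = 0.00933). Gpr124 itself had 3.01, 7.58, 4.74 and 2.65 RPKM in NS 1 to 4 and 8.12, 5.94, 2.92 and 2.98 RPKM in ST 1 to 4, with overlapping groups, and did not pass (adjusted p = 0.885). Ctnnb1, beta-catenin, had 2115 to 2482 and 1927 to 2149 RPKM and did not pass either (adjusted p = 0.374).

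Of 14 tight junction genes 3 fell (Tjp1, Ocln and Jam2) and none rose, whereas 4 of 11 adherens junction and surface genes rose and none fell, with 2 rises under quantile normalization or without a variance trend. Mcam, an adhesion molecule gene, had 27, 20.0, 20.4 and 35 RPKM in NS 1 to 4 and 156, 133, 204 and 155 RPKM in ST 1 to 4, a difference of 2.63 (SE 0.21, adjusted p = 5e-05). Pecam1 rose by 0.45 (SE 0.12, adjusted p = 0.027), with an adjusted p of 0.0715 without NS 2. Sdpr, a caveola-shaping gene, fell, at -1.74 (SE 0.21, adjusted p = 0.00042). Of the 29 endothelial identity genes 6 rose and 7 fell, and 3 fell without NS 2, without NS 4 or without a variance trend. Rgs5, given above as a pericyte marker, is 1 of the 7 falls. Cd93 had 123, 112, 109.6 and 110.1 RPKM and 338, 362, 468 and 325 RPKM and rose by 1.69 (SE 0.14, adjusted p = 5e-05), and Nostrin, which traffics nitric oxide synthase, had 157, 142, 185 and 179.7 and 70.9, 55.4, 37.1 and 83.1 RPKM and fell, at -1.47 (SE 0.23, adjusted p = 0.00175). Ly6a (Sca-1) rose by 0.95 (SE 0.11, adjusted p = 0.00034). Of 17 cell cycle genes 2 rose and 1 fell (median -0.02), a share near the background of 8.58% and 5.04%. Ccnd1, cyclin D1, rose by 2.0 (SE 0.34, adjusted p = 0.00294) and Pcna by 0.91 (SE 0.14, adjusted p = 0.00173), while Stmn1 fell, at -1.81 (SE 0.39, adjusted p = 0.0107). Outside that list, the cell cycle inhibitor gene Cdkn1b fell, at -1.09 (SE 0.14, adjusted p = 0.00059).

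**Figure D4:**
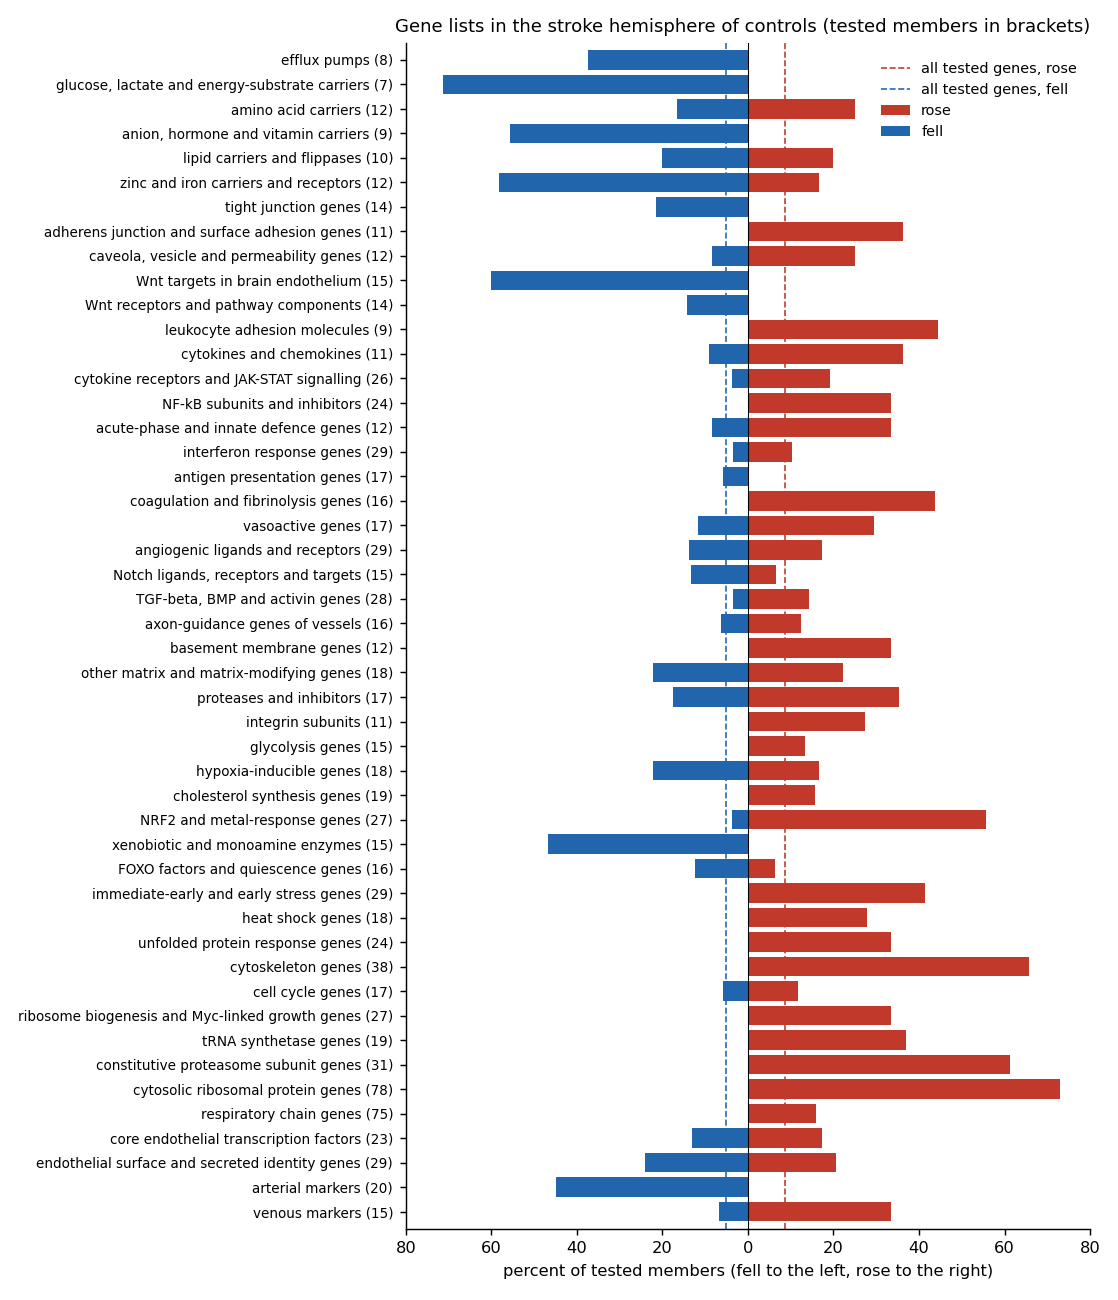
Percent of tested members of each gene list that rose (red, to the right) or fell (blue, to the left) in the stroke hemisphere of controls, with the number tested in brackets; dashed lines mark all 9730 genes, of which 8.58% rose and 5.04% fell. The longest red bars belong to ribosomal protein, cytoskeleton and proteasome genes and the longest blue bars to carriers of glucose and lactate, Wnt targets and zinc and iron genes.

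The same contrast was measured in 8 libraries that this comparison did not use, from mice of the genotype Gpr124 flox/- and the same recombinase, operation and sort, 2 of the stroke libraries being labelled male. There 479 of 9838 genes rose (4.87%) and 599 fell (6.09%). Of the 830 control rises tested there, 795 (95.8%) had the same sign, 347 (41.8%) rose and none fell. Of the 482 control falls, 472 (97.9%) had the same sign, 265 (55.0%) fell and none rose. Without the second stroke library of the knockouts these counts were 216 and 158. The median of the rises was 1.20 in controls and 0.84 in knockouts, and that of the falls -1.09 and -1.07. The median over all genes was -0.13 in knockouts, and selection on the control libraries favours larger values there.

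Among single genes Adamts4 stood at 4.64 in controls and 4.70 in knockouts and Sepp1 at -2.01 and -2.15. Socs3 was at 2.25 and 0.82 and Scgb3a1 at 2.99 and 0.88, and the knockout value of these 2 did not pass. Of the lists, 20 of 78 ribosomal protein genes, 6 of 31 proteasome genes and 19 of 38 cytoskeleton genes rose in knockouts, and 7 of 19 arterial markers and 6 of 15 xenobiotic enzymes fell. The shares over all genes tested in knockouts were 4.87% for rises and 6.09% for falls. A direct test of the difference between genotypes, limma's interaction term, called 0 of 9838 genes, while 691 had an unadjusted p under 0.05. No gene's stroke effect was thus shown to differ between controls and knockouts at this size.

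**Figure D5:**
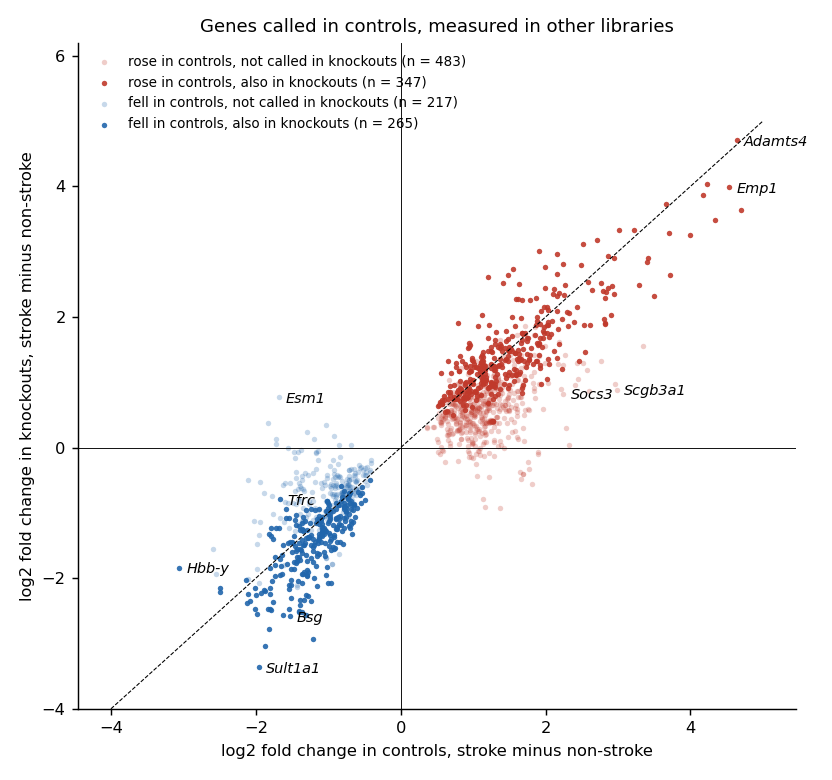
Log2 fold change (stroke minus non-stroke) in controls on the x axis and in knockouts on the y axis for genes called in controls, red for rises and blue for falls, solid where the knockout fit made the same call; the dashed line marks equal values. Of the rises 347 and of the falls 265 were called again, and most other points keep their side of 0.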

How the data were processed

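Sorted brain endothelial cells of control mice gave 4 libraries per hemisphere. RPKM values, read counts scaled to gene length and library size, were deposited by the authors in 1 table of 24260 rows. Polyadenylated RNA was amplified from the 3' end, per the labels' protocols, so that a value per full gene length does not rank genes against each other. The edgeR package and the mm10 build are named in the submitters' processing notes. The sources used here name no aligner, annotation or gene lengths. The 8 columns of no described sample were not used, and 54 rows sharing 23 names were dropped.

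From these values log2(RPKM + 1) was computed, where a fold change understates that of low genes. Genes with a mean of at least 1 RPKM over the 8 libraries were tested with limma 3.58.1 (R 4.3.3, eBayes with trend) and Benjamini-Hochberg adjustment over all 9730, at 0.05. Xist and 4 Y-linked genes were left out. Differences are stroke minus non-stroke on that log2 scale. Knockouts were fitted alone, and the interaction on all 16 libraries. The scripts were tested on simulated data. Depth was estimated from 3193 genes of short span (under 1500 bp) as the value that put the most low values at whole reads. At that depth 19.9 to 26.1% of low values were whole reads within 0.02. The 4% by chance holds for a depth not chosen this way, so the excess does not test these depths. Most low values were not whole, so no count test was run. Coordinates are GENCODE's and promoters RefSeq's, both GRCm38.

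Named genes were the 15 largest rises and falls without overlap and with a group mean of at least 5 RPKM (predicted genes skipped), up to 6 called members per list (2 of the highest level where none was called), and 8 fixed genes. Some genes that this rule names are not reported here. The members and the 56 lists were chosen with earlier results of these data known. Alternatives changed the pseudocount, filter, scaling, variance trend, replicate block, libraries in the fit and each library in turn.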

Additional observations from a re-analysis of the deposited data

Results flagged for a closer look

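Of 492 groups of 4 libraries (each of the 246 named genes in each hemisphere), 37 held a library set apart from the other 3 by a gap above Dixon's 95% critical value for 4 samples. Chance sets apart about 1 group in 20. ST 3 held 8 of them and NS 4 held 7, and each other library held 2 to 6. Each library's value is given with the range of the other 3 of its group.

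In NS 1, Il4ra stood at 5.07 RPKM with the others at 0.66 to 1.04 and Igfbp4 stood at 7.03 RPKM with the others at 2.67 to 3.35. In the same library, Actb stood at 8660 RPKM with the others at 7160 to 7380 and Retnlg stood at 4.84 RPKM with the others at 0. Here also Scg5 stood at 11.4 RPKM with the others at 2.95 to 4.1. In NS 2, Cd34 stood at 310 RPKM with the others at 224 to 232 and Nfkbib stood at 3.9 RPKM with the others at 0.609 to 1.07. In the same library, Timp1 stood at 0.807 RPKM with the others at 0. In NS 3, Slc7a11 stood at 0.627 RPKM with the others at 0.184 to 0.209 and Bcl3 stood at 1.09 RPKM with the others at 1.38 to 1.42. In the same library, Apln stood at 5.81 RPKM with the others at 1.56 to 2.09. Here also Psmd14 stood at 17.8 RPKM with the others at 12.1 to 12.8. In NS 4, Slc7a1 stood at 406 RPKM with the others at 320 to 332 and Il6 stood at 0.063 RPKM with the others at 0. In the same library, Nid1 stood at 30.6 RPKM with the others at 11.1 to 14.2 and Serpinb6b stood at 44.8 RPKM with the others at 37 to 37.6. Here also Myc stood at 0.803 RPKM with the others at 0.0602 to 0.111 and Aif1 stood at 76.7 RPKM with the others at 0 to 0.24. Here also Tmem14a stood at 18.9 RPKM with the others at 6.08 to 7.94. In ST 1, Sparc stood at 1200 RPKM with the others at 986 to 1020 and Kars stood at 9.02 RPKM with the others at 5.43 to 5.89. In ST 2, Gadd45g stood at 90.2 RPKM with the others at 125 to 132 and Net1 stood at 75.1 RPKM with the others at 39.9 to 42.1. In ST 3, Igf1r stood at 66.6 RPKM with the others at 114 to 123 and Emp1 stood at 2600 RPKM with the others at 1230 to 1430. In the same library, Hbegf stood at 162 RPKM with the others at 82.6 to 96.1. Here also Dll1 stood at 25.2 RPKM with the others at 12.6 to 14.1 and Sema6d stood at 13.6 RPKM with the others at 8.23 to 8.71. Here also Nid1 stood at 50.5 RPKM with the others at 29.6 to 31.8 and Sult1a1 stood at 15.8 RPKM with the others at 38.5 to 41.6. Here also Ndufb7 stood at 36 RPKM with the others at 52.3 to 54.8. In ST 4, Ehd4 stood at 36.9 RPKM with the others at 28.6 to 29.8 and Sele stood at 35.8 RPKM with the others at 4.99 to 9.92. In the same library, Nos3 stood at 50.7 RPKM with the others at 25.2 to 28.6 and Aif1 stood at 0.566 RPKM with the others at 0. Here also Hbb-y stood at 0.401 RPKM with the others at 1.47 to 1.5 and Cldn5 stood at 195 RPKM with the others at 84.1 to 99.6.

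The spread of Sele and Cldn5 in the stroke hemisphere came from single libraries by this measure. No named gene's stroke effect differed between controls and knockouts by limma's interaction term.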

How the results depend on the processing

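The counts of genes that rose ran from 653 to 840 and of those that fell from 328 to 625 over the pseudocounts, filters, scalings, variance trend, replicate block and 16-library fit, against 835 and 490. With 1 library left out, 631 to 706 rose and 299 to 441 fell, the lowest count of falls being that without ST 3. Quantile normalization moved the share of rises among the calls from 63% to 54.8%. The median of all genes stayed between -0.03 and 0.057 (log2) under every setting. In knockouts, 216 to 374 of the control rises rose and 158 to 265 of the control falls fell with 1 library left out, both lowest without the second stroke library, and 236 to 433 and 177 to 295 over the pseudocounts, filters, scalings and replicate block. The interaction test called 0 genes in these settings and with each of the 16 libraries left out. Neither was run without a variance trend.

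The labels do not say whether equal replicate numbers pair the libraries, and for that reason they were not taken to. The correlation of deviations was 0.098, 0.126, 0.072 and 0.012 for equal numbers and -0.111 to 0.035 for the others. ST 1 to 3 correlated best with the non-stroke library of their own number and ST 4 did not, a hint from the data and not the design. With the number as a block, 819 genes rose and 517 fell, and the calls of 8 named genes were lost, H2-T23, Bhlhe40 and Vegfa among them.

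Of 237 named calls, 202 held in all 8 fits with 1 library left out. Most named genes were picked for wide changes or low p-values in these same libraries, so this share does not stand for all calls. Beside the calls already given as lost without a single library, no filter ended the calls of Slc2a1, Bsg, Slc7a5, Procr, Stmn1 and Tnfrsf1a, and a fit without a variance trend those of Slc2a1 and Maoa. The 16-library fit ended those of Slc2a1, Fmo1 and Fmo2. Median-of-ratios scaling and quantile normalization also ended that of Pecam1. The cause was not tested. Genes that had not passed changed sign. Cldn5 stood at -0.018 with median-of-ratios scaling, -0.149 with quantile normalization and -0.261 to 0.14 with 1 library left out (negative without NS 1, NS 3 and ST 4). Gpr124 stood at -0.12 to 0.356 with 1 library left out (negative without NS 1, NS 4 and ST 1). Ly6c2 stood at -0.168 with quantile normalization and at -0.0213 to 0.163 with 1 library left out (negative without NS 3 and ST 4). Depth limits low genes, since 1 to 5 RPKM is worth few reads in these libraries.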

Other observations

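Values outside the comparisons concern genes near the floor of detection and are given without explanation. Of the 23 genes at 0 in all 4 non-stroke libraries and above 0 in all 4 stroke libraries, Akr1b8, an aldo-keto reductase gene, stood at 1.90, 0.866, 1.51 and 0.285 RPKM in ST 1 to 4. Pfkfb4, which encodes a regulator of glycolysis, stood at 0.200, 0.0613, 0.0907 and 7.25 RPKM, so that ST 4 made up most of its sum. These 2 genes were chosen after their values were seen.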
